A study of Arabidopsis thaliana with 12 samples.

Results

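At 1240 min after dawn, 120 min into a dark period, seedlings of the CCA1 overexpressor were compared with wild-type seedlings of the same age. The comparison used 6 of the 12 arrays of the study: 3 of the line CCA1-34 (CCA1-34 late) against 3 of the wild type Col (Col late), picked by their sample titles. CCA1-34 is a single Arabidopsis thaliana line, given as arrhythmic in the study's design text, with too much CCA1. The promoter that drives CCA1 in it is not given in the sources used here. Col is the Columbia wild type. All seedlings had 4 short days at 20 °C on medium with 3% sucrose, with light for 8 h and darkness for 16 h. Light of 160 min then alternated with darkness of 320 min. Whole seedlings, about 100 to a dish, were harvested in darkness at an age of 5, 6 and 7 days, which are replicates 1, 2 and 3 in each group. By the design text CCA1-34 seedlings were growing at this time and Col seedlings were not. The other 6 arrays, CCA1-34 early and Col early, came from the first dark period of the day, 280 min after dawn, when both lines were growing. They share the pretreatment and ages, and enter here through the common estimate of spread and in 1 comparison.

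CCA1 is a Myb transcription factor of the plant circadian clock. It accumulates around dawn with its partner LHY and represses evening genes such as TOC1, GI and ELF4, whose products in turn act on the morning genes. Among the outputs of this clock are PIF4 and PIF5, bHLH factors that are broken down in light and drive elongation of the seedling stem in darkness. They do so in part through auxin: they switch on auxin synthesis genes of the YUCCA family, and auxin then induces Aux/IAA, SAUR and GH3 genes.

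Levels are log2 RMA values, one per probe set and array, so that a difference of 1 is a change of 2 times. Array medians lay between 4.05 and 4.12 in the late arrays. Within each line the late arrays correlated at r = 0.969 to 0.992 over the probe sets. Precision is limited by having 3 arrays per line. A value below its array's median was not shown to be above background, and a difference from such a value is at best a lower bound. Among the genes below this held in all 3 Col late arrays for ACBP6, ACS6, CCA1, GI, LNK1, LNK4, PRR3, YUC2, YUC8, CKX5, SAUR9, IAA6, GA20OX1, ACS4, ACS8, CDF3, AT1G69570, ARGOS, AT1G73480 and AT2G41480. It held in all 3 CCA1-34 late arrays for LHY, RVE1, RVE8, ELF4, JMJD5, PSKR2, SESA1, AT1G66100 and AT1G49230. LNK3, BEE1, PIF6, HY5, HYH, SOC1 and AGL24 were below the median in all 6 late arrays, so neither line was shown to be above background. Counts and medians of gene lists include such genes. Fewer cells of a type and less RNA per cell cannot be told apart in whole seedlings. The labels do not say whether the arrays came from separately sown cultures, so a p-value here reflects only how these samples vary. Among the early arrays, CCA1-34 early replicate 2 and Col early replicate 3 stood apart. Their means over 17 shade- and PIF-induced genes were 4.47 and 4.19, against 5.37 and 5.91 in the other CCA1-34 early arrays and 5.42 and 5.53 in the other Col early arrays. HYH, a light-induced bZIP factor, was at 5.02 and 4.26 in these arrays, and between 1.82 and 2.31 in the other early arrays. In the late arrays HYH lay between 1.59 and 2.13 in CCA1-34 late and between 2.24 and 3.49 in Col late.

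The CCA1 transcript stood at 8.89, 9.10 and 10.18 in CCA1-34 late replicates 1 to 3, against 3.71, 2.66 and 3.43 in Col late. No array of either line overlapped with the other, and in Col the transcript was below the median of each array. The difference of means was 6.12 (SE 0.777). In limma's fit over all 12 arrays the adjusted p was 0.0588, above the threshold of 0.05, and with the day of harvest as a block it was 0.0360. With 1 array left out it ranged between 0.00285 (Col early replicate 3) and 0.390 (CCA1-34 late replicate 2), and without Col early replicate 1 it was 0.00840. In a fit of the 6 late arrays alone with the day as a block, called the paired fit below, it was 0.00791.

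Across all 22746 probe sets 2 rose in CCA1-34 late in the fit of 12 arrays (0.00879% of those tested) and 0 fell (0%). With array weights, which give less weight to arrays that deviate more, the same 12 arrays passed 102 higher and 18 lower. Col late replicate 1 had a weight of 3.99, against 0.615 and 0.552 for Col late replicates 2 and 3. The weighted Col late mean therefore rests mostly on 1 array, which limits every weighted result below. Of the 81 genes named by the rule given under processing, 39 passed with array weights but not in the unweighted fit. Among them were EXLA2 and XTH17 as higher and RVE2, PSKR2 and AT1G72430 as lower. Weighted values are printed below for only some of the 39. At an unadjusted p under 0.05 there were 861 probe sets (3.79%), 535 higher (2.35%) and 326 lower (1.43%), where 5% of all tests would be 1137.3. The 2 that rose were ACBP6 and ACS6. ACS6, an enzyme of the ACC synthase family that makes the precursor of ethylene, was at 5.10, 5.02 and 5.19 in CCA1-34 late and at 3.85, 3.79 and 3.83 in Col late. Its difference of 1.28 (SE 0.133) is 2.42 times, with adjusted p = 0.0180. Omitting any 1 of the 6 late arrays ended the call (adjusted p 0.0548 to 0.166), as did omitting Col early replicate 2 (0.0578). At the early time ACS6 was also higher in CCA1-34, by 0.63 without overlap. That difference did not pass in the fit of 12 arrays (unadjusted p = 0.00072, adjusted p = 0.968). ACBP6, the gene of an acyl-CoA-binding protein of the cytosol, differed between the lines at both times of day and is described further on.

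With the day as a block over the 12 arrays, 6 probe sets passed (0.0264%), 5 higher (0.0220%) and 1 lower (0.00440%). CCA1, ACBP6, ACS6, AT1G73480 and AT2G41480 were the 5 that rose. AT1G49230, listed as ATL78, a RING-type ubiquitin ligase gene, fell. The paired fit passed 44 probe sets (0.193%), 37 higher (0.163%) and 7 lower (0.0308%). Without the block the 6 late arrays passed 22 (0.0967%), 20 higher (0.0879%) and 2 lower (0.00879%). The 44 represent 40 genes, 21 of which are in the lists used below, and in 39 of the 44 the late arrays did not overlap. Leaving out a day moved the paired counts strongly: without replicate 1 of both lines 2 were higher and 0 lower, without replicate 2 there were 56 and 25, and without replicate 3 there were 62 and 6. Of the 44, only ACBP6 and CCA1 passed whichever day was left out (largest adjusted p 0.0124 and 0.0134). Each of the others lost its call without at least 1 of the days. In the following, "passed the paired fit" refers to this test and its adjusted p, and a gene that passed only there did not pass the fit of 12 arrays. Groups of genes are described by counts and medians beside those of all probe sets, for which the late arrays did not overlap with CCA1-34 late higher in 5.45% and lower in 4.78% (10.2% in all). Of 445 listed genes, 119 were higher and 22 lower without overlap, and 82 and 9 had an unadjusted p under 0.05.

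Within the clock, morning genes split. Of 14 measured morning-phased genes, 5 were higher and 4 lower in CCA1-34 late without overlap. PRR7, a pseudo-response regulator that represses CCA1 and LHY, had 5.43, 5.82 and 6.54 in CCA1-34 late and 2.74, 3.19 and 4.18 in Col late. Its difference was 2.56 (SE 0.530), and it passed the paired fit (adjusted p = 0.00726; 0.363 over 12 arrays). LNK4 had 4.54, 5.13 and 5.75 in CCA1-34 late, against 2.64, 2.38 and 3.52 in Col late, and passed the paired fit with 0.0241, as did its relative LNK1 (1.85, adjusted p = 0.0215). LNK3 was below the array medians in both lines. LNK proteins are coactivators that bind Myb factors of the RVE family.

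Of the Myb genes of the morning list other than CCA1, LHY, RVE1, RVE2 and RVE8 lay lower without overlap, and the other 4 overlapped between the lines. RVE2, a relative of CCA1 with the same kind of Myb domain, was at 5.86, 4.18 and 4.76 in CCA1-34 late, against 8.75, 7.69 and 7.66 in Col late. This difference of -3.10 (SE 0.644) was the most negative of the listed genes and passed the paired fit (adjusted p = 0.00815). LHY had 3.70, 3.37 and 3.37 in CCA1-34 late and 6.59, 4.64 and 4.92 in Col late, a difference of -1.90 that did not pass (adjusted p = 1.00 over 12 arrays, 0.151 in the paired fit). RVE1 was 1.47 lower, and RVE8 0.95 lower, neither past a test and both without overlap between the lines. A probe set that matches both AT1G18330 and AT3G10113, and so was given to neither gene, passed the paired fit as higher (adjusted p = 0.0447). It had 4.34, 4.94 and 5.67 in CCA1-34 late and 2.56, 2.80 and 4.31 in Col late.

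Evening-phased genes were divided as well: 4 of 16 were higher and 2 lower without overlap, with a median difference of -0.02. GI, a large protein that stabilizes light-dependent clock components and promotes flowering, stood at 5.20, 5.89 and 6.01 in CCA1-34 late, against 2.98, 3.29 and 2.92 in Col late. Its difference of 2.64 passed the paired fit (adjusted p = 0.0215; 0.536 over 12 arrays). ELF4, a part of the evening complex that represses PIF4 and PIF5, was lower, at 3.26, 2.78 and 2.89 in CCA1-34 late against 4.29, 5.22 and 4.47 in Col late (-1.69, paired 0.127). Over 12 arrays its adjusted p was 0.809, and between 0.0475 (without Col early replicate 3) and 1.00 with 1 array left out. JMJD5, a histone demethylase gene, was lower by 1.52 (paired 0.274).

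TOC1, the evening gene best known as a target of CCA1, overlapped between the lines. It had 5.88, 5.63 and 6.15 in CCA1-34 late and 5.85, 6.22 and 6.86 in Col late, with a difference of -0.42 (SE 0.295, adjusted p = 1.00). LUX and PRR5, an evening complex gene and a pseudo-response regulator gene, differed by -0.19 and -0.38 with overlapping arrays. PRR3, another pseudo-response regulator gene, was higher by 1.01 without overlap and missed both tests (paired 0.184), and CAT3, a catalase gene with an evening peak, was 0.49 higher (paired 0.498).

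**Figure D1:**
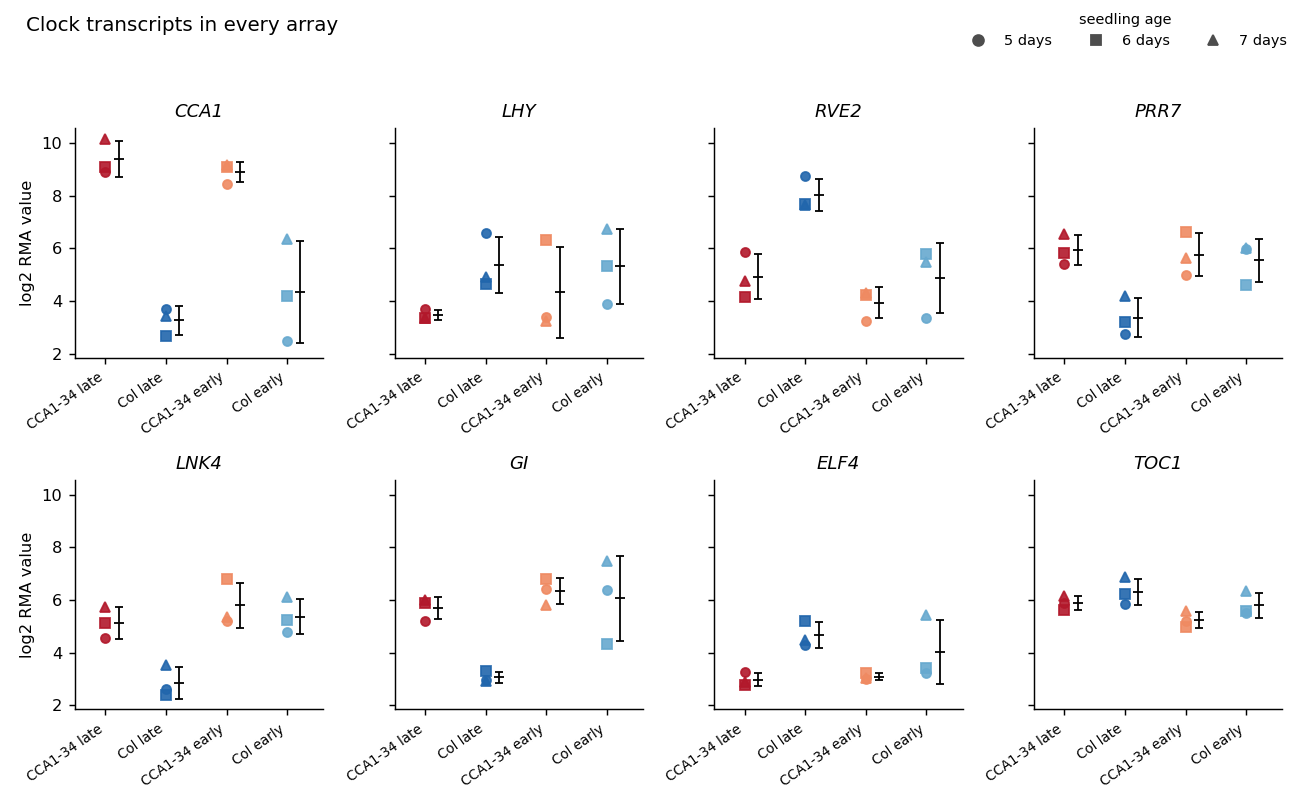
Log2 RMA values of 8 clock transcripts in each of the 12 arrays. Groups run along the x axis, with CCA1-34 late before Col late and CCA1-34 early before Col early; point shapes give seedling age, and black marks are means ± SD (n = 3). GI, PRR7 and LNK4 stood above Col late in all CCA1-34 late arrays, LHY, RVE2 and ELF4 stood below it, and TOC1 overlapped.

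Genes of the PIF and growth-related bHLH group were mostly higher. Of 18 measured members 9 were higher and 1 lower without overlap, with a median difference of 0.80, against -0.005 over all probe sets. PIF4 stood at 6.40, 7.02 and 7.15 in CCA1-34 late and at 2.91, 3.58 and 5.23 in Col late. All CCA1-34 arrays were above all Col arrays, although the 7-day Col array was far above the other Col arrays. The difference of 2.95 (SE 0.463) is 7.75 times. Adjusted p was 0.139 over 12 arrays, 0.0896 with the day as a block and 0.0543 in the paired fit, so the difference did not pass. With array weights, where this 7-day Col array had a weight of 0.552, it passed (3.63, adjusted p = 0.00335). With 1 array left out the adjusted p ranged between 0.00114 without Col late replicate 3, where the difference was 3.62, and 0.995. In the paired fit without replicate 3 it was 0.00552.

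PIF5 gave a like picture, with 6.64, 7.07 and 7.58 in CCA1-34 late against 4.04, 4.22 and 6.13 in Col late. Its difference of 2.30 (SE 0.494) had adjusted p = 0.383, and 0.00911 with array weights. It was 0.0312 without Col late replicate 3, where the difference was 2.97, and up to 1.00 without another array. PRE1, a small bHLH protein that promotes elongation by binding inhibitors of growth, was at 6.79, 7.10 and 6.63 in CCA1-34 late and 3.21, 3.23 and 4.11 in Col late. The difference of 3.32 was the largest in the group and passed the paired fit (adjusted p = 0.0254). HFR1, an atypical bHLH factor that restrains PIF action, had 6.47, 7.26 and 7.75 in CCA1-34 late and 3.73, 4.34 and 5.44 in Col late (2.66, paired adjusted p = 0.00964).

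The remaining bHLH genes varied. IBH1, an inhibitor of elongation, was higher by 0.91 without overlap and not past a test, and BEE1, a brassinosteroid-enhanced factor, and PIF6 were below the array medians in both lines. PIF1 and HBI1 differed by 0.25 and 0.06 with overlapping arrays. UNE10, a bHLH gene that entered the list under the name PIF8, was lower by 0.73 without overlap (adjusted p = 1.00). For PRE1 the adjusted p over 12 arrays was 0.278, and between 0.0475 (without Col early replicate 3) and 1.00 with 1 array left out; with array weights it was 0.00472.

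Shade- and PIF-induced genes were the group with the highest median. All 17 measured members were higher in CCA1-34 late, 15 without overlap, with a median of 1.19, and 12 had an unadjusted p under 0.05. YUC8, a flavin monooxygenase gene of auxin synthesis, was at 5.50, 5.92 and 6.19 in CCA1-34 late against 3.27, 3.63 and 4.06 in Col late. The difference of 2.22 (SE 0.376), 4.65 times, passed the paired fit (adjusted p = 0.00726; 0.218 over 12 arrays). ATHB2, a homeobox factor induced by low red to far-red light, had 5.94, 6.38 and 6.41 in CCA1-34 late against 3.83, 4.28 and 4.83 in Col late (1.93, paired 0.0215). HAT2, a homeobox gene of the same family, was 1.19 higher with paired adjusted p = 0.0618. ACS8, an ACC synthase gene, was at 5.10, 5.19 and 5.62 in CCA1-34 late, against 2.89, 2.83 and 3.37 in Col late (2.27, paired 0.00726). CKX5, which breaks down cytokinin, was higher by 2.12 without overlap (paired 0.127).

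Named outside the rule for its size, IAA29 is a repressor gene of the auxin response that is a common readout of PIF activity. It had 7.54, 8.06 and 7.93 in CCA1-34 late and 3.64, 4.22 and 5.92 in Col late, a difference of 3.25 (SE 1.14, adjusted p = 1.00; paired 0.0629). As for PIF4, the 7-day Col array was the highest of its group. PAR1, a gene that shade induces and that restrains the shade response, overlapped between the lines, with 5.43, 6.70 and 7.39 in CCA1-34 late and 4.27, 4.95 and 7.40 in Col late.

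**Figure D2:**
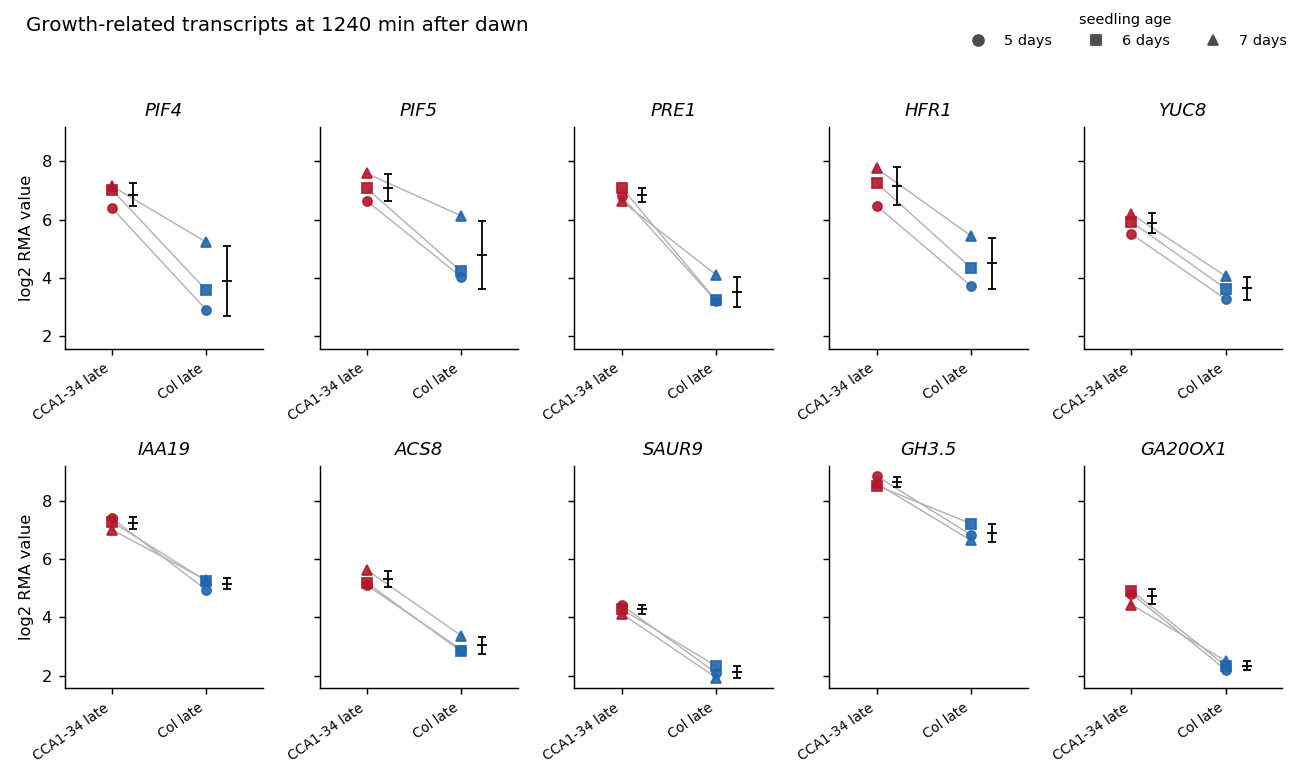
Log2 RMA values of 10 growth-related transcripts at 1240 min after dawn, CCA1-34 late on the left of each panel and Col late on the right. Shapes give seedling age, grey lines join arrays of the same day, and black marks are means ± SD (n = 3). All joins slope down to Col, and PIF4 and PIF5 show the raised 7-day Col array.

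Auxin genes of synthesis and transport were higher in 18 of 20 cases, 9 of them without overlap, with a median of 0.43. Besides YUC8, its relative YUC2 was 0.94 higher without overlap (paired adjusted p = 0.0928). CYP79B2, which makes indole-3-acetaldoxime, was 0.72 higher, with 7.82, 8.25 and 7.89 in CCA1-34 late and 7.28, 7.78 and 6.75 in Col late. PIN3, an auxin efflux carrier, was 0.69 higher. TAA1 (0.16) overlapped between the lines.

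The response genes of auxin showed the same direction. Of 19 Aux/IAA repressor genes 9 were higher without overlap and 0 lower, with a median of 0.40. IAA19 was at 7.39, 7.27 and 7.00 in CCA1-34 late and at 4.94, 5.24 and 5.27 in Col late. Its difference of 2.07 (SE 0.518) passed the paired fit (adjusted p = 0.0241), while over 12 arrays it was 0.580, 0.0156 with array weights, and 0.0475 (without Col early replicate 3) to 1.00 with 1 array left out. IAA6, IAA2 and IAA1 were higher by 2.29, 1.45 and 1.29 without overlap and did not pass. IAA28 was the lowest of the list at -0.30, with overlapping arrays.

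Of 24 listed SAUR and GH3 genes 14 were higher without overlap and 0 lower, with a median of 0.64. SAUR9, a small auxin-up gene, was at 4.42, 4.27 and 4.12 in CCA1-34 late against 2.1, 2.33 and 1.93 in Col late, and passed the paired fit (2.15, adjusted p = 0.00964), while SAUR23, on a probe set named for 1 locus, had 7.07, 7.51 and 7.18 in CCA1-34 late against 4.64, 4.94 and 5.47 in Col late (2.24, 0.0294). Related SAUR genes can share probes, so the values of single members are uncertain. GH3.5, which conjugates auxin to amino acids, was at 8.84, 8.51 and 8.59 in CCA1-34 late and 6.82, 7.21 and 6.64 in Col late (1.76, SE 0.277, paired adjusted p = 0.0450; 0.139 over 12 arrays, 0.00706 with array weights, and 0.0121 without CCA1-34 early replicate 2 to 0.717 without Col late replicate 1). AT1G72430, annotated as SAUR78 but not among these 24 genes, was lower without overlap. It had 5.83, 5.50 and 5.68 in CCA1-34 late against 6.72, 6.83 and 7.10 in Col late, a difference of -1.21. Its adjusted p over 12 arrays was 0.0588, and 0.0354 (without Col early replicate 3) to 0.390 (without CCA1-34 late replicate 2) with 1 array left out.

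**Figure D3:**
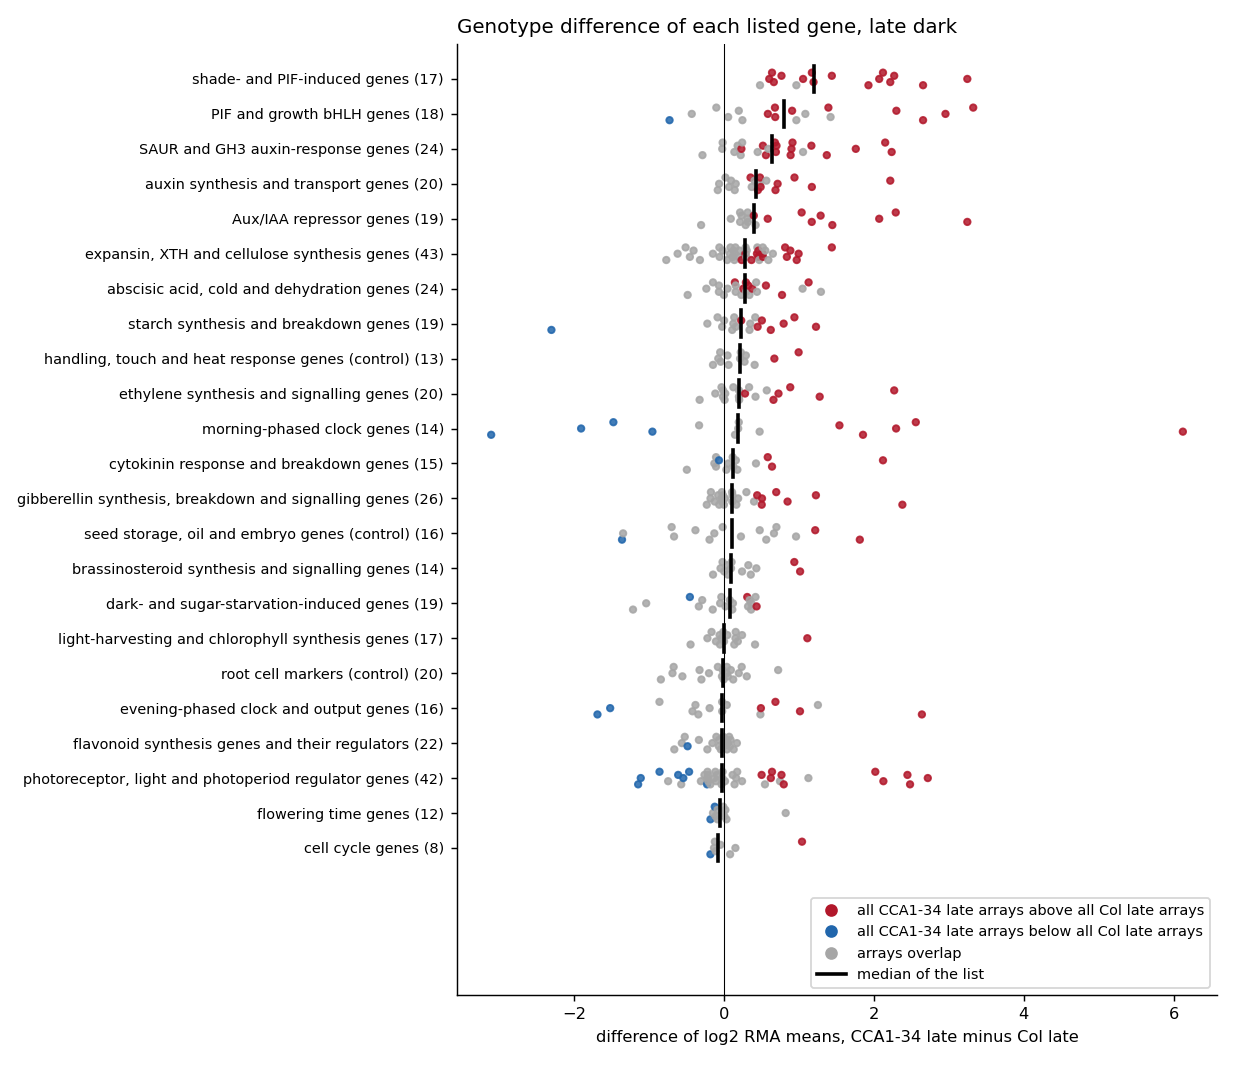
Difference of log2 RMA means, CCA1-34 late minus Col late, for every measured member of 23 gene lists, whose numbers stand in brackets. Red points are genes with all CCA1-34 late arrays above all Col late arrays, blue points the reverse and grey points overlap; black bars are list medians. The shade- and PIF-induced list has the highest median (1.19). The root marker median lies near 0 (-0.01), with members from -0.84 to 0.72.

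Cell wall genes were shifted less. Of 43 expansin, XTH and cellulose synthesis genes 33 were higher, 14 without overlap and 0 lower without overlap, with a median of 0.29. EXLA2, an expansin-like gene, was at 6.06, 5.83 and 5.88 in CCA1-34 late and at 5.21, 4.98 and 5.13 in Col late (0.82, SE 0.175, paired 0.0703). XTH17, a xyloglucan-modifying enzyme gene, and COB, needed for oriented cellulose deposition, were 0.97 and 0.44 higher. XTH22, also a touch gene, was 1.00 higher, with 7.19, 6.97 and 7.30 in CCA1-34 late against 5.82, 5.93 and 6.72 in Col late. None of the 43 passed either fit.

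Among gibberellin genes the median was 0.11 and 7 of 26 were higher without overlap. GA20OX1, a biosynthesis gene that is rate-limiting for growth, was the clearest, with 4.81, 4.91 and 4.43 in CCA1-34 late and 2.19, 2.33 and 2.50 in Col late. Its difference of 2.38 (SE 0.375) is 5.20 times. It passed the paired fit (adjusted p = 0.0215), but not the fit of 12 arrays (0.139), where it was 0.00335 with array weights and 0.0293 (without Col early replicate 3) to 0.995 with 1 array left out. GA3OX1, which acts downstream of it, was 1.23 higher (paired 0.0627). DELLA repressor genes RGA and GAI were 0.44 and 0.70 higher without overlap, and neither passed.

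Of 20 ethylene genes 6 were higher without overlap, with a median of 0.20, among them ACS6 and ACS8 above and ACS4 (0.88). Of 14 brassinosteroid genes 2 were higher without overlap: BR6OX2, a late step of synthesis, by 0.94 and BAS1, which inactivates brassinosteroids, by 1.02 (paired adjusted p = 0.0660 and 0.052). Outside the lists, BRH1, named as a brassinosteroid-responsive RING-H2 gene, passed the paired fit (8.19, 7.90 and 8.05 in CCA1-34 late, 7.05, 6.88 and 7.03 in Col late, adjusted p = 0.0450). In abscisic acid and cold response 8 of 24 were higher without overlap. NCED3, the rate-limiting enzyme of abscisic acid synthesis, had 5.71, 5.24 and 4.78 in CCA1-34 late against 4.49, 4.25 and 3.6 in Col late and passed the paired fit (1.13, adjusted p = 0.0447).

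Regulators of light response and photoperiod split in a way like the clock: 10 of 42 were higher and 7 lower without overlap, with a median of -0.03. COL5, a CONSTANS-like gene, was at 7.94, 8.54 and 8.78 in CCA1-34 late and 4.26, 5.63 and 7.21 in Col late (2.72, paired 0.101). BBX24, a B-box repressor of photomorphogenesis, had 8.17, 8.65 and 8.85 in CCA1-34 late and 5.13, 6.14 and 7.06 in Col late (2.45, paired adjusted p = 0.0461). CDF3, a cycling Dof factor, had 5.21, 5.60 and 6.49 in CCA1-34 late and 2.98, 3.38 and 3.5 in Col late (2.48, paired 0.0215). Its relative AT1G69570 was 2.02 higher (paired 0.0602), and PHYB, the red light receptor, 0.63 higher without overlap (paired 0.183).

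The CONSTANS-like genes COL1 and COL9 ran opposite to COL5, lower by 1.14 and 1.11 without overlap and not past a test. HYH and HY5, an activator of the light response, were below the array medians in both lines. PKS1, a phytochrome substrate gene, differed by -0.74 with overlapping arrays. Of 12 flowering time genes 0 were higher and 2 lower without overlap, namely SOC1 and AGL24, both below the array medians in both lines.

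Starch genes had 7 of 19 higher and 1 lower without overlap, with a median of 0.23. ISA3, a debranching enzyme gene, was at 5.67, 5.44 and 5.01 in CCA1-34 late and 4.43, 4.66 and 4.64 in Col late (0.80). AMY3, an alpha-amylase gene, was 1.23 higher, at 7.19, 7.37 and 7.59 in CCA1-34 late and 5.53, 5.97 and 6.97 in Col late. BAM3, a chloroplast beta-amylase that degrades starch, went the other way, with 3.96, 4.05 and 4.91 in CCA1-34 late and 7.06, 5.72 and 7.04 in Col late. Its difference of -2.30 had a large SE of 1.33 and did not pass (paired 0.0627).

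Several functions differed little. Light-harvesting and chlorophyll synthesis genes had a median of 0.001 with 1 of 17 higher without overlap, and RBCS1A, the small subunit of Rubisco, was at 12.87, 12.83 and 12.87 in CCA1-34 late and 12.99, 12.86 and 12.83 in Col late. Flavonoid genes had a median of -0.03, and 1 of 22 was lower without overlap. In dark- and sugar-starvation-induced genes the median was 0.08, and DIN10 passed the paired fit (adjusted p = 0.0450), with 6.76, 7.11 and 8.65 in CCA1-34 late and 7.96, 8.51 and 9.69 in Col late, overlapping between the lines. Of 8 cell cycle genes CYCD1;1, a D-type cyclin gene, was 1.04 higher (paired 0.175), and the median was -0.08. Of 15 cytokinin genes 3 were higher and 1 lower without overlap.

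Markers of other tissues and of handling were followed because they can move with the harvest. Of 20 root cell markers 0 differed without overlap and the median was -0.01, with array means of 5.12, 4.69 and 4.52 in CCA1-34 late and 4.83, 5.41 and 4.38 in Col late. For 13 handling, touch and heat response genes the means were 4.18, 4.14 and 4.09 in CCA1-34 late and 3.96, 4.07 and 3.72 in Col late, so that the groups did not overlap. The median difference of these 13 genes was 0.22, with 9 higher in CCA1-34 late. That is of the size of the starch (0.23), ethylene (0.20) and cell wall (0.29) medians. TCH2 and XTH22 of the 13 were higher by 0.67 and 1.00. The part of the handling genes in the other differences was not tested. Seed and embryo genes averaged 5.04, 5.49 and 5.21 in CCA1-34 late and 5.12, 5.86 and 4.40 in Col late. Of these 16 genes 8 were higher and 8 lower (2 and 1 without overlap), with a median of 0.11, and none passed either fit. EM1, an embryo protein gene, was 1.81 higher, at 7.17, 6.81 and 5.89 in CCA1-34 late against 5.63, 4.45 and 4.36 in Col late, and SESA1, a seed storage albumin gene, was 1.36 lower.

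**Figure D4:**
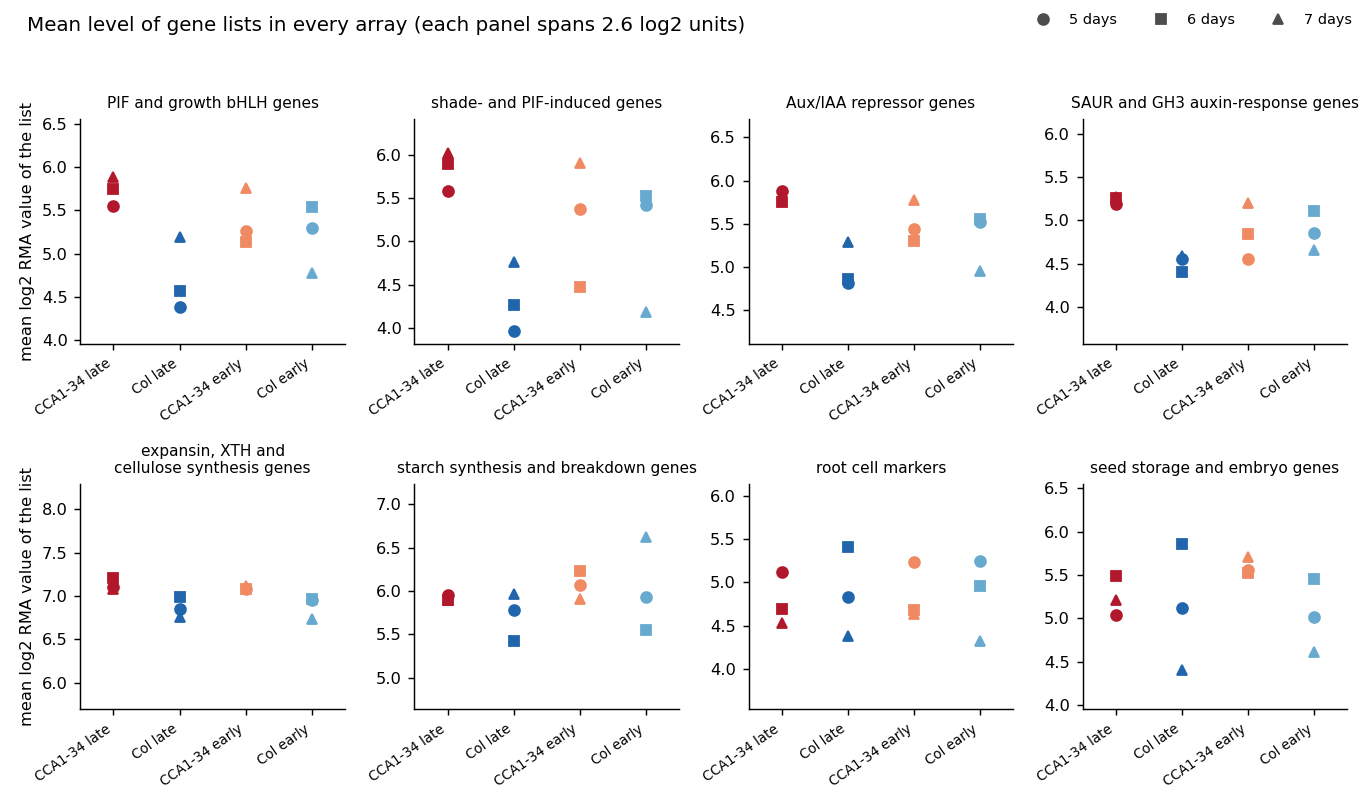
Mean log2 RMA value of 8 gene lists in each of the 12 arrays, with CCA1-34 late before Col late and CCA1-34 early before Col early; shapes give seedling age. Shade- and PIF-induced, PIF and bHLH, Aux/IAA, SAUR and GH3 and cell wall lists lie higher in CCA1-34 late than in Col late in every array; starch, root and seed lists overlap.

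ACBP6 differed between the lines by more than any other gene. It was at 11.05, 10.98 and 10.72 in CCA1-34 late and at 3.69, 3.48 and 3.44 in Col late, below the array medians. The difference of 7.38 (SE 0.117, adjusted p = 1.49e-10) stayed past the threshold with any 1 array left out. At the early time it was 7.25, and a change between the times was not detected (late minus early 0.13, unadjusted p = 0.447). Other genotype differences of like size at both times were in AT3G25150, with 4.33, 4.41 and 4.64 in CCA1-34 late against 6.41, 6.55 and 6.75 in Col late. It differed by -2.11 late and -2.40 early, passed the paired fit (adjusted p = 0.00726) and over 12 arrays missed at 0.0588, passing without CCA1-34 early replicate 2 or 3 (0.00555 and 0.00821) and reaching 0.390 without CCA1-34 late replicate 2. AT1G49230, listed as ATL78, was at 2.34, 2.32 and 2.37 in CCA1-34 late and 3.98, 4.43 and 4.52 in Col late (-1.97, -1.31 early), with adjusted p = 0.0360 with the day as a block, 0.0795 without it and 0.00491 to 0.487 with 1 array left out. PSKR2, a peptide receptor kinase gene, differed by -1.25 late and -1.37 early (paired 0.0925).

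Further genes outside the lists passed the paired fit with CCA1-34 late higher. ST2A, a sulfotransferase gene, was at 6.66, 6.76 and 6.72 in CCA1-34 late and 3.97, 4.23 and 3.2 in Col late (2.93, adjusted p = 0.0215). AT1G73480 was at 5.57, 5.94 and 5.22 in CCA1-34 late against 3.42, 3.62 and 3.46 in Col late (2.08, adjusted p = 0.0215). Neither of these genes overlapped between the lines. ARGOS, an auxin-regulated gene that enlarges organs, had 5.60, 5.06 and 5.17 in CCA1-34 late and 2.78, 3.19 and 2.83 in Col late (2.35, adjusted p = 0.0290). HEC1, a bHLH gene, was higher by 2.38 (0.0215). RGF6, a peptide gene named GOLVEN 1 as a synonym, had 8.27, 8.38 and 8.15 in CCA1-34 late and 6.6, 6.75 and 7.04 in Col late (adjusted p = 0.0493). On the lower side were AT1G66100, at 2.70, 3.05 and 3.87 in CCA1-34 late and 5.80, 5.51 and 7.30 in Col late (-3.00, adjusted p = 0.0215), and SDR1, a dehydrogenase/reductase gene, at 5.44, 4.99 and 5.00 in CCA1-34 late against 7.32, 6.34 and 6.37 in Col late (-1.53, 0.0439).

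At the early time the median genotype difference was smaller for the shade- and PIF-induced and the bHLH genes, but not for every growth list. Over the 17 shade- and PIF-induced genes the median difference was 1.19 late and 0.15 early, and over the bHLH genes 0.80 and 0.12. Over the cell wall genes the medians were closer, at 0.29 late and 0.19 early. They were 0.11 and 0.17 for gibberellin genes, and 0.10 and 0.23 for brassinosteroid genes. PIF4 was at 6.64, 6.70 and 7.04 in CCA1-34 early and 6.52, 6.27 and 6.49 in Col early, a difference of 0.37. In CCA1-34 it stood close to the late level (6.86 late, 6.79 early), whereas in Col it was 3.90 late and 6.43 early. Over all probe sets 1 passed the early comparison, ACBP6 (0.00440%). At an unadjusted p under 0.05 there were 813 (3.57%), 398 higher (1.75%) and 415 lower (1.82%).

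The test of this difference of differences, late minus early, passed 0 of 22746 probe sets (0%) in limma. At an unadjusted p under 0.05, there were 465 probe sets (2.04%), of which 254 lay above 0 (1.12%) and 211 below (0.928%). Of 445 listed genes 35 lay above and 5 below at that level, 6 of the 17 shade- and PIF-induced genes among the 35. PIF4 differed by 2.59 between the times (unadjusted p = 0.00247), YUC8 by 2.07 (0.00277), SAUR9 by 2.63 (0.000603), GH3.5 by 2.0 (0.0004) and GA20OX1 by 2.14 (0.00214), and none passed after adjustment. Below 0 was AT1G72430, which is outside the lists, with -1.38 (9.5e-05). The early values of these genes include CCA1-34 early replicate 2 and Col early replicate 3. Without both arrays the late comparison passed 26 probe sets higher and 4 lower, and the difference of differences passed 1.

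**Figure D5:**
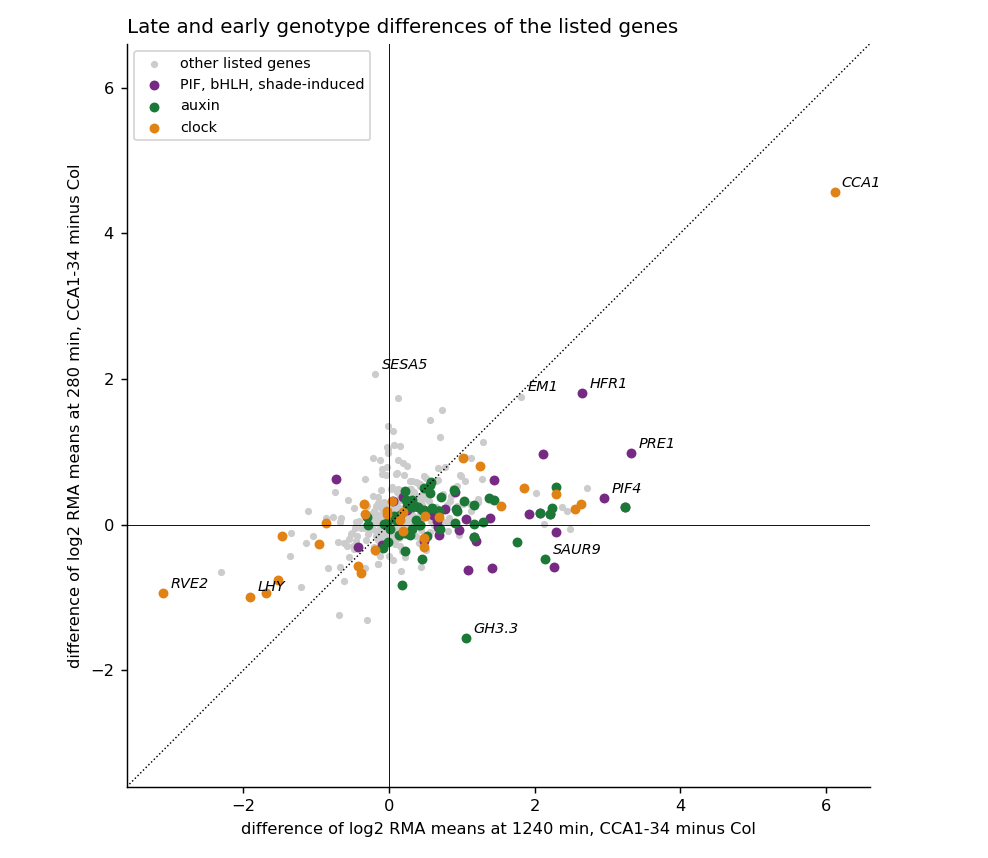
Genotype difference of log2 RMA means, CCA1-34 minus Col, at 1240 min (x axis) and at 280 min (y axis) for the listed genes, with the dotted line marking equal differences. PIF, bHLH, shade-induced and auxin genes lie mostly to the right of the line near 0 on the y axis, whereas CCA1 is high on both axes.

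Across the 3 days the direction held for the groups that were highest. The median difference within a day over the shade- and PIF-induced genes was 1.51 at 5 days, 1.36 at 6 days and 1.02 at 7 days. Over the bHLH genes it was 1.07, 0.58 and 0.37, and over Aux/IAA genes 0.62, 0.45 and 0.30, while over SAUR and GH3 genes it was 0.53, 0.85 and 0.47. With 1 array per line and day, these orders are descriptions. Col late at 7 days had the highest shade list mean of its group, 4.77 against 3.97 and 4.26, and all CCA1-34 late arrays were above it, at 5.58 to 6.02. That Col array also had the highest starvation gene mean (6.34 against 5.35 and 5.68) and the lowest root marker mean of its group, whose part in the difference was not tested.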

How the data were processed

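Whole-seedling RNA was hybridized to Affymetrix arrays in 4 groups of 3. The deposited values are log2 values that the authors made with RMA, as the file headers and the processing notes of the submitters say. RMA normally includes quantile normalization, which reduces a shift of most transcripts in 1 direction. The sources used here give neither its version nor a genome build. The 64 array controls among 22810 probe sets were not tested. Groups came from titles, and ages and times from descriptions. Genes were named from probe sets of 1 locus (the brightest per gene) through a TAIR10.1 table. Tests used limma 3.58.1 in R 4.3.3 (two-sided, 8 residual degrees of freedom, median SE of a difference 0.160) with Benjamini-Hochberg adjustment over 22746 probe sets, checked on simulated data. Same-numbered late arrays of both lines deviated together (r = 0.428, 0.234 and 0.505) and the labels give them 1 age, so age in days pairs them. Single genes could not pass an exact permutation test of 3 against 3 arrays, whose smallest p is 0.1.

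The members, the gene lists and the fits were chosen with earlier results of these data known. Named genes were those past the threshold, up to 12 largest differences in each direction without overlap at unadjusted p under 0.01 (the higher line above the array median), up to 5 per list with unadjusted p under 0.05, the 6 smallest p per direction for the difference of differences, and CCA1, LHY, TOC1, PIF4, PIF5 and ACBP6. Others, chosen after their values were seen, are the non-overlapping or contrasting list members given without this rule and the genes that passed the paired fit. Of 479 listed genes 445 were measured, in 23 lists that share some genes. No promoter or protein sequences were used here.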

Additional observations from a re-analysis of the deposited data

How the results depend on the processing

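With other settings the fit of 12 arrays passed 4 probe sets higher and 2 lower with a trend in eBayes, and 4 and 2 without dim probe sets. It passed 5 and 1 with the replicate block, 102 and 18 with array weights, 2 and 0 after median centring or repeated quantile normalization, and 26 and 4 without CCA1-34 early replicate 2 and Col early replicate 3 (chosen after seeing the data). The 6 late arrays alone passed 20 and 2, or 37 and 7 with the replicate block. Omitting 1 array from the fit of 12 gave 1 to 9 higher and 0 to 3 lower, the most without Col early replicate 3. Omitting day 1, 2 or 3 from the paired fit gave 2, 56 or 62 higher and 0, 25 or 6 lower. The difference of differences, which needs the early arrays, passed 0 in each of the other settings that hold all 12 arrays and in each omission of 1 array, and 1 without the 2 early arrays named above. The CCA1 difference, 6.12 in the main fit, was 5.72 with array weights (adjusted p = 0.00135), 6.12 with the trend (0.0262), without dim probe sets (0.0230), without both early arrays (0.00367), with the replicate block (0.0360) and over the 6 late arrays (0.00982, or 0.00791 paired). Omitting 1 array gave 5.73 to 6.37, with adjusted p between 0.00285 and 0.390, and omitting a day from the paired fit gave 5.81 to 6.59 (5.96 without replicate 2). Of the listed genes, 82 higher and 9 lower at unadjusted p under 0.05 became 60 and 3 without dim probe sets, 79 and 11 after centring and 82 and 9 with the mean of a gene's probe sets, and 60 to 86 and 6 to 12 without 1 late array. PAP85, a seed gene with -0.13 in the main fit, was between -0.29 and 0.10 without 1 array, and 0.0105 in the paired fit without replicate 1. No other of the 81 genes named by the rule changed sign. Genes chosen outside the rule were not followed through these settings. The causes were not tested. Depth has no counterpart on arrays, but a fold change from Col values below the array medians is at best a lower bound.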
